A study of Komagataella phaffii with 12 samples.

Results

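The response of chromatin to a slower growth rate was examined in wild-type (WT) Komagataella phaffii CBS7435, a methylotrophic yeast used for protein production. The libraries were chosen by their labels: 2 from glucose-limited chemostats at a growth rate of 0.1 per h in the first stage of the run (fast 1 and fast 2) and 2 at 0.05 per h (slow 1 and slow 2). These are 4 of the 12 libraries of the series, and their lists hold 1003 of its 3337 peaks. Each library was made by FAIRE-Seq, in which DNA that is free of nucleosomes is enriched and sequenced, and the deposited result is a list of called peaks. Both groups had the same strain and the same medium and differed in the growth rate and in the time of sampling. The slow stage followed the fast stage in the run, so that growth rate and time in culture cannot be told apart. The labels do not say which slow library came from the culture of which fast library. The slow cultures were mixed populations of ovoid, elongated and branched pseudohyphal cells, and a list averages over them.

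In FAIRE, cells are fixed with formaldehyde and their sheared chromatin goes through a phenol extraction. DNA crosslinked to nucleosomes stays with the protein, and nucleosome-free DNA is recovered from the aqueous phase. In yeasts such open regions lie mostly upstream of genes, where transcription factors and remodelling complexes keep nucleosomes away, and a promoter that is silenced tends to be covered by nucleosomes again. Slow growth on limiting glucose is the condition under which K. phaffii forms pseudohyphae, a change of cell shape in which the flocculin (FLO) family of cell wall adhesins takes part. Genes could not be placed on the peaks here, because the gene table at hand belongs to another strain, so that regions are given by position on CBS7435.

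The first question was whether more of the genome was open at slow growth. The fast lists held 219 and 199 peaks, and the slow lists 203 and 382. Slow 1 thus lay within the range of the fast lists, and slow 2 alone was longer. The mean peak number was 209 ± 14.1 (SD, n = 2) at fast and 292.5 ± 127 (SD, n = 2) at slow growth, 0.42 higher on the log2 scale (exact two-sided permutation test, p = 0.667, where 2 against 2 libraries cannot give less than 0.333). Covered length behaved in the same way, with 251.7 and 238.1 kb at fast growth and 243.0 and 407.3 kb at slow growth (0.36 on the log2 scale, exact permutation p = 0.667). Both differences turned slightly negative without slow 2, to −0.040 for peak number and −0.011 for covered length. Read numbers are not part of the lists. Depth is therefore unknown, and its part in the length of slow 2 was not tested.

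The score in the fifth column of each list, the peak caller's measure of how far a peak stands above background, differed in scale between the lists. Every list ended just above a score of 150, with lowest values between 150.16 and 154.38. At the 139 regions that all 4 lists held, the median score was 359.3 in fast 1, 304.5 in fast 2, 292.3 in slow 1 and 554.9 in slow 2. The same regions therefore scored 1.75 times as high in slow 2 as in its replicate (median ratio). When the scores of each list were scaled to a common median over these regions and a common minimum was applied, a step chosen after seeing the data, the lists held 180, 187, 193 and 185 peaks. The excess of slow 2 was absent on that scale. Scores are therefore compared below by rank within a list or after centring, and the counts of gained, lost and kept loci are also given for the same number of peaks from each list, the 199 of the shortest.

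Overlapping peaks of the 4 lists (by 1 bp or more) were joined, which gave 411 loci. Of these, 139 were kept, that is, held by both fast and both slow lists (33.8% of all loci). Gained loci, those held by both slow lists and by neither fast list, numbered 20 (4.87%). Lost loci, held by both fast lists and by neither slow list, numbered 5 (1.22%). Of the 168 loci of both fast lists, 82.7% were kept (95% Clopper-Pearson interval 76.2 to 88.1), and of the 188 loci of both slow lists, 73.9% were found in both fast lists (67.0 to 80.1). These intervals cover counting error over loci only. The largest remaining group was 135 loci held by slow 2 alone, whereas slow 1 alone held 7, fast 1 alone 6 and fast 2 alone 5. A further 29 loci were held by both slow lists and 1 fast list, and 24 by both fast lists and 1 slow list, in 20 cases slow 2.

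**Figure D1:**
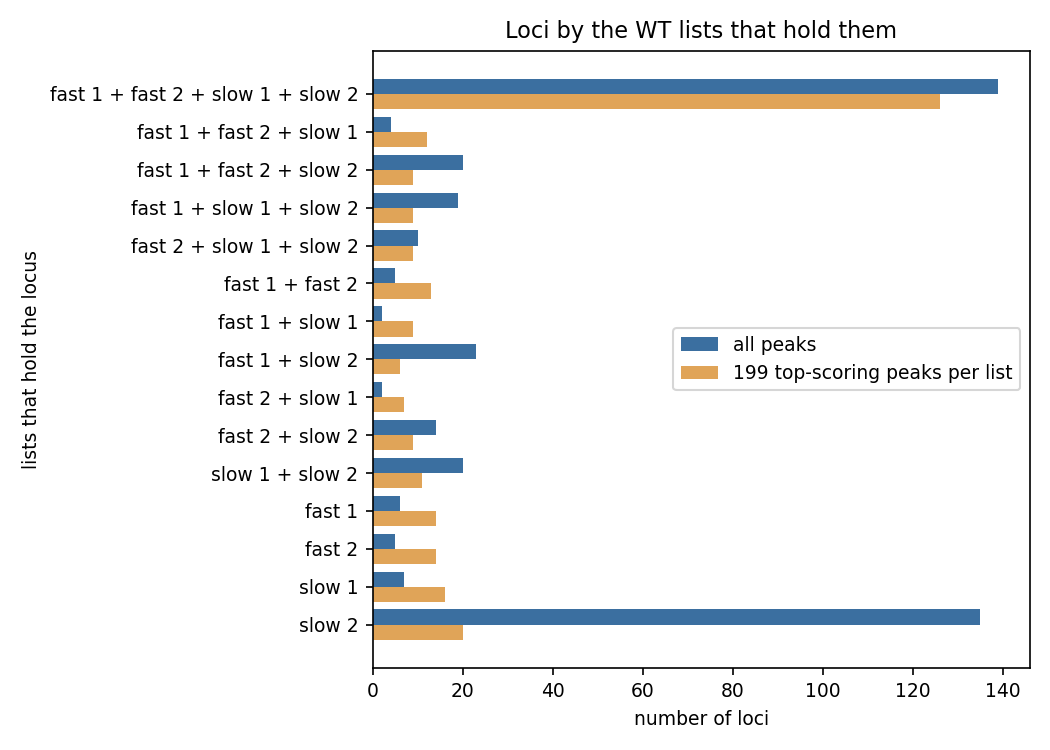
Number of loci (horizontal axis) for each combination of the 4 WT lists that hold them (vertical axis), with all peaks (blue) and with the 199 top-scoring peaks of each list (orange). The longest bars are the 139 loci held by every list and, with all peaks, the 135 held by slow 2 alone, which fell to 20 with equal numbers.

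Loci held by every list carried the higher-scoring peaks. Peaks at kept loci had a median rank of 79 of 219 in fast 1, 83 of 199 in fast 2, 77 of 203 in slow 1 and 78 of 382 in slow 2. In the longest list the loci of slow 2 alone had a median rank of 296, the best of them ranking 103, and 66 of the 135 scored under 200. The loci added by the longer list were thus mostly its weaker peaks. Their peaks were also narrower, with a median width in slow 2 of 914 bp against 1141 bp at kept loci.

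**Figure D2:**
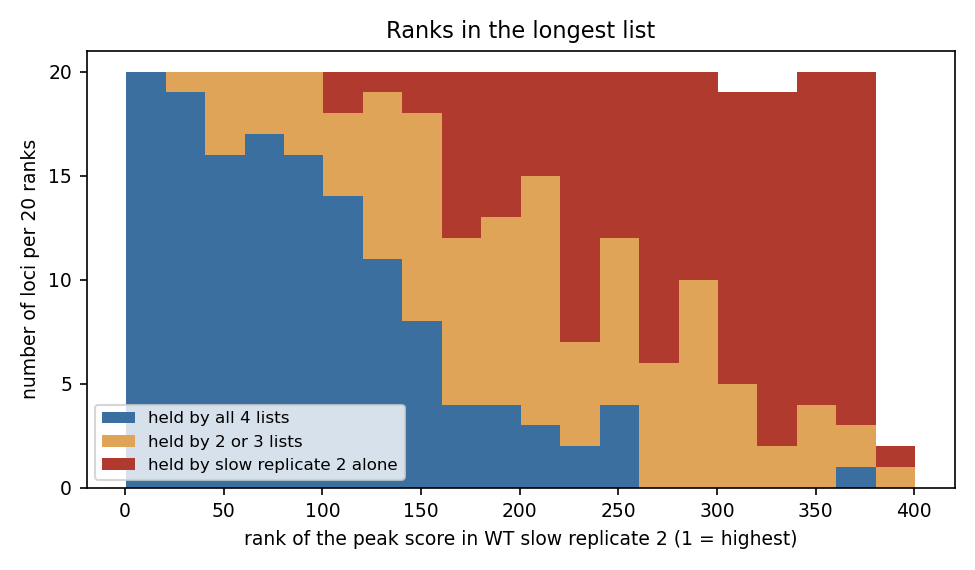
Number of loci per 20 ranks (vertical axis) by rank of the peak score in slow 2 (horizontal axis, 1 is the highest), split by how many of the WT lists hold the locus. Loci held by all 4 lists fill 88 of the first 100 ranks, and the 135 loci of slow 2 alone begin at rank 103 and lie around a median of 296.

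The gained loci were mostly of low score in slow 1 and lay around the middle of the list in slow 2. In slow 1 they had a median rank of 145 of 203, with 12 of the 20 scoring under 200. Over the whole slow 1 list 32.5% of peaks scored under 200. In slow 2 they had a median rank of 185.5 of 382, with 4 of the 20 scoring under 200, against 21.7% of that whole list. The gained locus with the highest mean percentile lay on chromosome 3 from 146340 to 147543, with a score of 285.82 (rank 82) in slow 1 and 638.75 (rank 59) in slow 2. It had no peak in either fast list, and the nearest fast peak was 26.5 kb away. The second, on chromosome 2 from 788721 to 790081, scored 330.45 (rank 66) and 459.99 (rank 99), with no fast peak within 25.4 kb. Their percentiles in the slow lists, where 100 is the highest score, were 59.9 and 84.7 for the one and 67.7 and 74.2 for the other.

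The next gained loci were of middle rank in at least 1 of the slow lists. On chromosome 1 from 1097665 to 1099384 the score was 354.68 in slow 1 (rank 60) and 273.99 in slow 2 (rank 201), where 2 peaks, the higher-scoring one 714 bp wide, took the place of 1 peak of 1601 bp. On chromosome 4 from 469170 to 470207 the scores were 248.8 (rank 96) and 331.23 (rank 161), and a fast peak lay 2.84 kb away. On chromosome 2 from 1919217 to 1920498 they were 211.17 (rank 126) and 398.41 (rank 123). The locus on chromosome 1 from 1365878 to 1367104 had 218.89 (rank 119) and 345.91 (rank 150), with a fast peak at 1.79 kb.

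Both remaining loci named here stood in the lower part of the slow 1 list. On chromosome 2 from 114548 to 115544 the scores were 207.26 (rank 130) and 332 (rank 159), and on chromosome 4 from 1251962 to 1252954 they were 197.78 (rank 140) and 333.48 (rank 157). The other 12 gained loci ranked between 120 and 202 in slow 1, with scores from 150.56 to 218.58, and between 124 and 377 in slow 2, with scores from 153.69 to 396.86. Over all 20 the nearest fast peak lay between 0.276 and 42.5 kb away, with a median of 9.64 kb.

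The 5 lost loci had no peak even in slow 2, the list with the most peaks. At the strongest, chromosome 2 from 1959429 to 1960573, the score was 372.95 in fast 1 (rank 74) and 348.31 in fast 2 (rank 63), with no slow peak within 21.2 kb. At 782752 to 784098 on chromosome 1 the scores were 365.04 (rank 76) and 325.56 (rank 74), and the nearest slow peak was 4.73 kb away. Both loci were among the better peaks of both fast lists, at percentiles between 63.1 and 68.6.

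The other lost loci were weaker or differed between the fast replicates. At chromosome 2 from 894064 to 895602 the scores were 283.8 (rank 116) and 223.97 (rank 126). On chromosome 4 from 1490462 to 1492125 they were 158 (rank 212) and 327.79 (rank 72), so that fast 1 held it only near its minimum. On chromosome 2 from 1058434 to 1059414 they were 175.92 (rank 195) and 199.11 (rank 141). The nearest slow peaks lay 1.41, 2.80 and 3.78 kb from these loci, in that order.

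**Figure D3:**
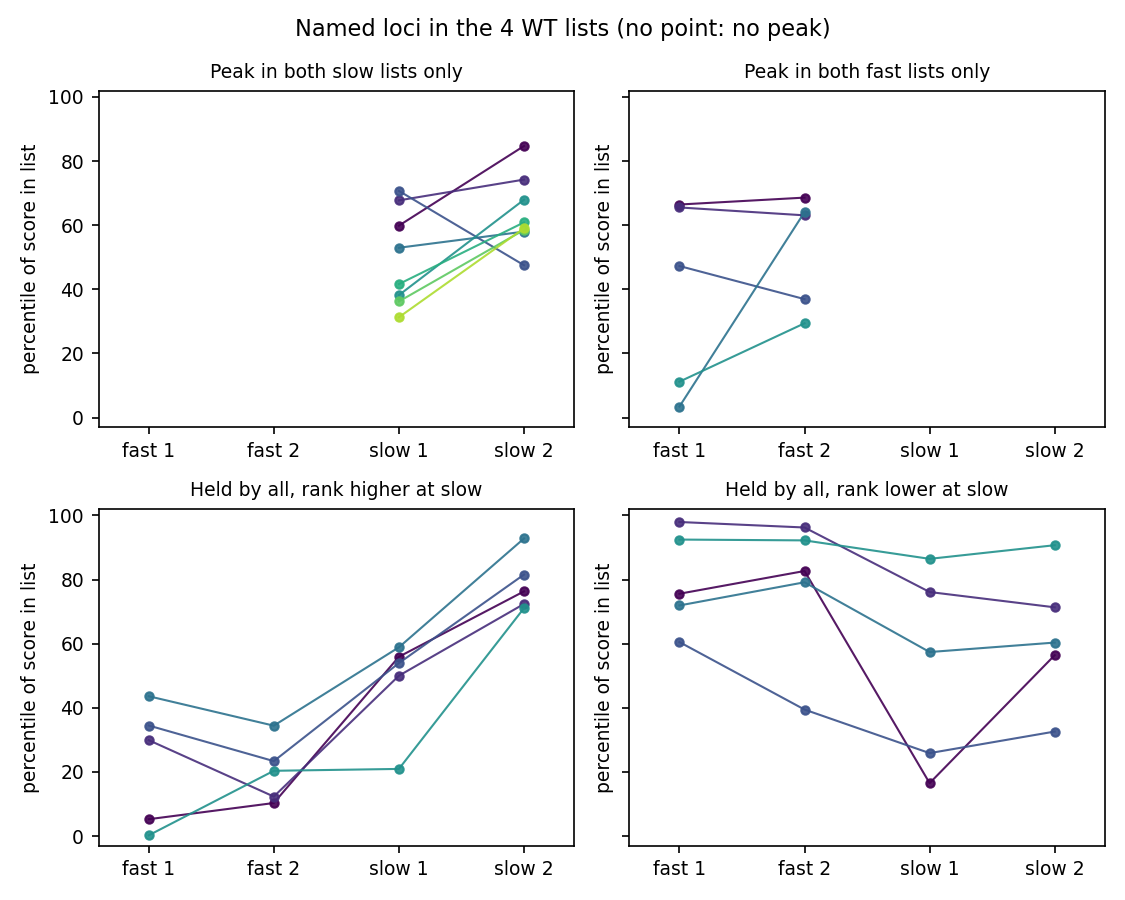
Percentile of the peak score within its list (vertical axis, 100 is the highest) in the 4 WT lists (horizontal axis) for the 8 leading gained loci, the 5 lost loci, and the 5 kept loci that rose or fell most in percentile without overlap between the stages. A list without a point had no peak, lines join the values of 1 locus, and percentiles of slow 2 are raised by the weaker peaks that only this longer list holds.

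With 199 peaks from each list, gains and losses were about equal. Of 284 loci, 126 were kept (44.4%), 11 were gained (3.87%) and 13 were lost (4.58%). The last peak admitted then scored 171.79 in fast 1, 150.92 in fast 2, 151.22 in slow 1 and 274.19 in slow 2. Of the 20 gained loci 10 were gained under this rule too, and of the 5 lost loci 4. The new gained locus, on chromosome 3 from 96012 to 97781, stood highest among the gained, with scores of 342.39 (rank 63) in slow 1 and 756.96 (rank 45) in slow 2 against a single fast peak of 162.84 (rank 210 of 219) in fast 1. Of the 9 new lost loci, 8 were held by slow 2 below its first 199 peaks and were missing from slow 1.

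The leading new lost locus, chromosome 1 from 876328 to 877986, scored 314.54 (rank 98) and 314.4 (rank 77) at fast growth, had no peak in slow 1, and had 207.08 (rank 287) in slow 2. The larger number of gains than losses in the full lists was not seen when each list gave the same number of peaks. Nor was it seen on the scaled scores, where 14 loci were gained and 13 lost. Equal numbers of peaks push gains and losses towards balance, and scaling to a common median removes any general rise. Neither rule can therefore decide whether more loci were gained than lost.

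The stages were then compared with the difference between replicates. With all peaks the Jaccard index (shared bases divided by all bases that a pair of lists covers) was 0.658 for the fast pair and 0.507 for the slow pair, and between 0.482 and 0.619 for the 4 pairs of different stage. The pair of slow lists was less alike than slow 1 was to either fast list (0.619 and 0.607). When every list gave 199 peaks, the index of the slow pair was 0.643, that of the fast pair 0.660, and the 4 pairs of different stage lay between 0.594 and 0.625. Lists of the same growth rate were then more alike than any lists of different growth rate, with means of 0.652 ± 0.0119 (SD over 2 pairs) and 0.609 ± 0.0124 (SD over 4 pairs). The difference of 0.0426 was the highest of the 3 ways to pair the libraries. It had p = 0.333 by an exact one-sided permutation test, which cannot give less with these libraries. With all peaks the difference was smaller, 0.0264, and that all-peaks difference turned negative without fast 1 or fast 2 (−0.038 and −0.061). With 199 peaks the slow pair (0.643) stayed above the remaining pairs of different stage without fast 1 (0.610 and 0.607) and without fast 2 (0.625 and 0.594). At the level of loci the separation was small, as 19.2% to 22.1% of the loci of a list were missing from its replicate and 21.2% to 24.6% from a list of the other stage.

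**Figure D4:**
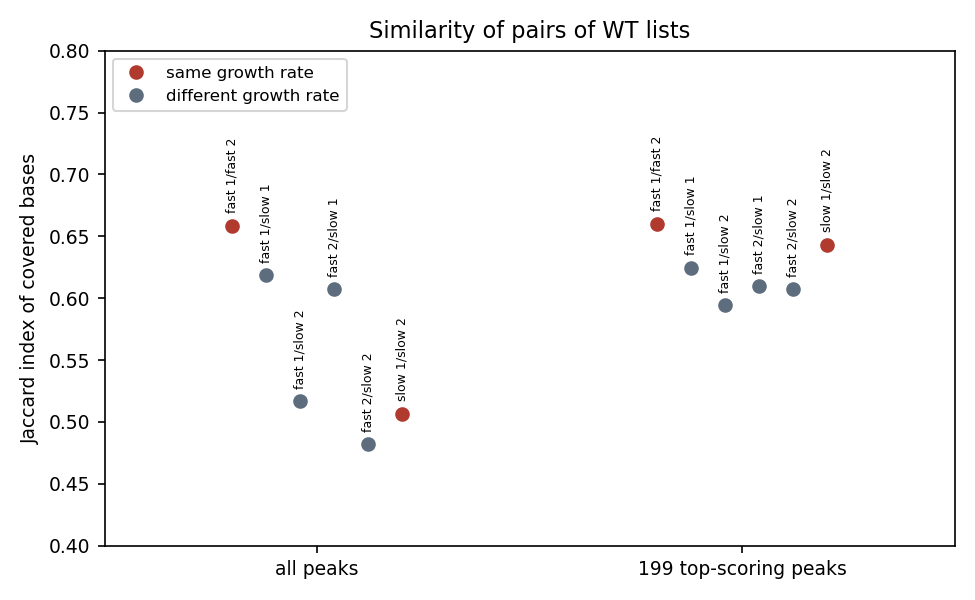
Jaccard index of covered bases (vertical axis, starting at 0.4) for the 6 pairs of WT lists, with all peaks and with the 199 top-scoring peaks of each list (horizontal axis). With equal numbers both pairs of the same growth rate (red, 0.660 and 0.643) lie above the 4 pairs of different growth rate (grey, 0.594 to 0.625).

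The 5 kept loci with the highest mean percentile over the 4 lists, a choice that favours high ranks at both growth rates, were led by the same region throughout. The locus on chromosome 1 from 2502959 to 2505249 ranked 1 in all 4 lists, with scores of 1892.76 and 1415.03 at fast and 1310.97 and 2117.11 at slow growth. The next, on chromosome 1 from 1940788 to 1943075, ranked 4, 2, 2 and 5 in fast 1, fast 2, slow 1 and slow 2. A neighbour of the first, on chromosome 1 from 2498722 to 2500296, ranked 2, 4, 4 and 4. At 2458214 to 2460291 of the same chromosome the ranks were 3, 3, 11 and 2, and from 524825 to 526713 they were 11, 5, 10 and 14. All 5 lay on chromosome 1, which held 52 of the 139 kept loci. Other strong peaks did not hold their place. The locus on chromosome 2 from 1739086 to 1741104, named after its values were seen, ranked 19 and 15 at fast growth and was missing from slow 1. In slow 2 it was split into 2 peaks, the higher-scoring one at rank 199. That peak was 931 bp wide, against single peaks of 1979 and 1980 bp at fast growth.

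Among the kept loci the order by score was largely preserved. Spearman's rho of the scores was 0.83 between the fast lists, 0.86 between the slow lists, and between 0.75 and 0.84 for lists of different stage, as a description over 139 loci that share the same libraries. The percentile of a locus shifted by a median of 7.96 points between the stage means, while it differed by 8.18 points between the fast replicates and by 14.1 between the slow replicates. Ranked among the kept loci only, so that peaks outside them do not count, the shift was 7.19 points against 8.63 for the fast and 7.19 for the slow replicates. The shift between stages was thus not above the difference between replicates on either scale, although a mean of 2 lists varies less than a single list. Peak position hardly moved, since the midpoints of the 4 peaks of a kept locus spanned a median of 39 bp. The median width at these loci was 1112 and 1101 bp at fast and 1128 and 1141 bp at slow growth, with 37 loci wider in both slow lists than in both fast lists (26.6%) and 14 narrower (10.1%). The width shifted by a median of 33.5 bp between the stage means, against 44 bp between the fast and 37 bp between the slow replicates. The width counts were not tested.

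Counts of kept loci whose ranks did not overlap between the stages depended on the scale. By percentile within the whole list, 37 ranked higher in both slow lists (26.6%) and 6 lower (4.32%). When loci were ranked among the 139 kept loci only, so that the extra peaks of slow 2 had no part, 22 ranked higher (15.8%) and 30 lower (21.6%). The majority of rises was not seen on the latter scale, but ranks among the same loci have the same mean in every list. A general rise could therefore not have appeared there.

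To ask which kept loci changed beyond the spread of the replicates, a test chosen after seeing the data was run with limma on log2 scores centred on the median of each list. Of 139 loci, 2 had a lower centred score at slow growth with an adjusted p under 0.05 (1.44%) and 0 had a higher one (0%), with 6 lower and 7 higher at an unadjusted p under 0.05. Both lay side by side near the end of chromosome 3, separated by 1373 bp. They also had the largest falls in percentile among the 6 loci that ranked lower without overlap.

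At the locus on chromosome 3 from 2176982 to 2178285 the scores were 478 (rank 54) and 493.28 (rank 35) at fast growth and 171.27 (rank 170) and 316.79 (rank 167) at slow growth. Both fast values were above both slow values before any scaling. The centred log2 score fell by 1.34 ± 0.24 (SE, limma, adjusted p = 0.00763), and the peak was 1268 and 1304 bp wide at fast against 975 and 987 bp at slow growth. The neighbour, from 2173614 to 2175608, was among the leading peaks at fast growth, with scores of 1106.43 (rank 5) and 815.45 (rank 8), and dropped to 435.84 (rank 49) and 422.07 (rank 110). Its centred log2 score fell by 1.43 ± 0.30 (SE, limma, adjusted p = 0.0185), and its width went from 1995 and 1883 bp to 1547 and 1445 bp. In slow 2 a separate peak, absent from the other lists, lay 16 bp before it, from 2172617 to 2173597 with a score of 303.25 (rank 178).

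Both loci fell in every alternative that held them, the higher-scoring 50% of each list holding only the neighbour, but the call was not kept in all. The change in centred log2 score ran from −1.46 to −1.19 at the first locus and from −1.86 to −0.95 at the neighbour. With a common minimum score the adjusted p (limma) was 0.0479 at the first locus and 0.183 at the neighbour. It was 0.0317 and 0.107 without peaks over input regions, and 0.0347 and 0.0710 with scaled scores. Both passed with peaks within 200 bp merged and with either pairing of the libraries as a block. The neighbour also passed in the higher-scoring 50% (0.0222). With 199 peaks from each list the adjusted p (limma) was 0.0452 at the first locus and 0.140 at the neighbour, with quantile normalised scores it was 0.240 and 0.347, and without fast 1 or fast 2 neither passed, with values from 0.342 to 0.814. Without slow 1, 7 loci were called lower and 5 higher, and without slow 2, 2 were called lower, 1 of them of this pair. The kept locus before this pair, from 2156046 to 2157067, did not share the fall, with scores of 154.38 and 181.24 at fast and 174.8 and 418.91 at slow growth.

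**Figure D5:**
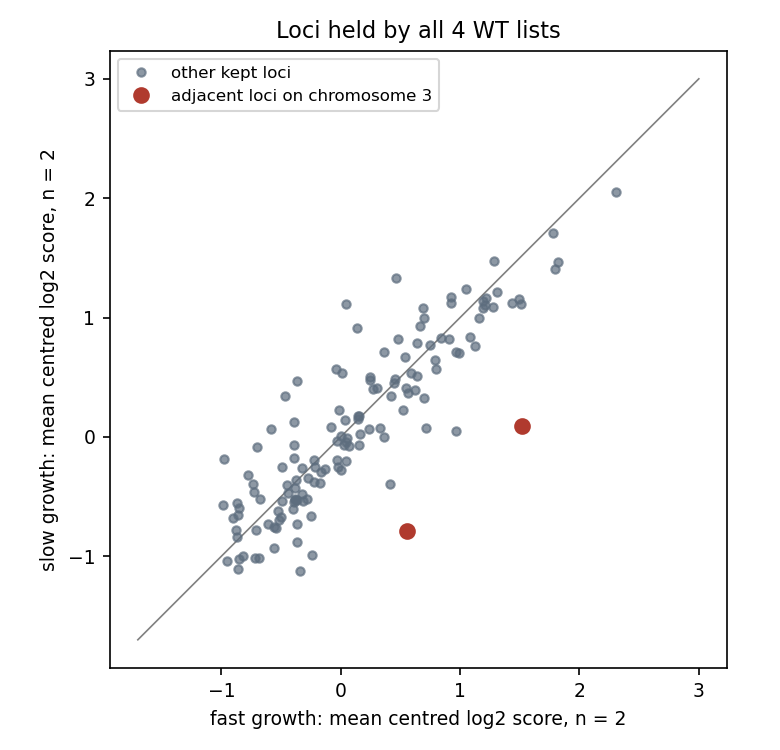
Mean centred log2 score of the 139 kept loci at slow growth (vertical axis) against fast growth (horizontal axis), each the mean of 2 lists, with the line of equal values. The adjacent pair on chromosome 3 (red) lies farthest below the line, with changes of −1.34 and −1.43, and most other loci (grey) lie along it.

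The loci chosen for the largest rises in percentile had low to middle ranks at fast growth. A locus already near the top of a list has little room to rise in percentile. The choice therefore favours low ranks at fast growth and does not show where rises occurred. On chromosome 1 from 944634 to 945748 the scores were 164.7 (rank 208) and 172.01 (rank 179) at fast and 260.79 (rank 90) and 481.44 (rank 91) at slow growth, all slow values being above the fast values. The centred log2 score was 0.79 ± 0.24 (SE) higher, which did not pass (limma, adjusted p = 0.136). On chromosome 2 from 1559277 to 1560288 the scores were 215.97 and 173.16 at fast and 239.39 and 434.77 at slow growth. At 1209686 to 1210747 on chromosome 1 they were 224.33 and 184.52 against 255.42 and 565.93. Before centring, the slow 2 value was the highest at both, and slow 1 stood closer to the fast values. After centring, both slow values lay above both fast values. On chromosome 2 the centred values were −0.29 and −0.35 at slow against −0.73 and −0.81 at fast growth. On chromosome 1 they were −0.19 and 0.03 against −0.68 and −0.72.

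The other risers by percentile leaned on slow 2 also after centring. At 2804329 to 2805225 on chromosome 1, a locus over a region of the WT input list, the scores were 264.76 and 216.85 at fast and 278.86 and 930.15 at slow growth. The centred values there were −0.44 and −0.49 at fast and −0.07 and 0.75 at slow growth. On chromosome 3 from 2156046 to 2157067, described above beside the fallen pair, the slow 1 value of 174.8 lay between the fast values. After centring, slow 1 (−0.74) stood level with fast 2 (−0.75), and slow 2 stood higher (−0.41). In centred score the largest rises, named after their values were seen, were at other loci. The first was on chromosome 4 from 728660 to 730158, with 491.61 and 237.2 at fast and 631.31 and 1209.11 at slow growth (1.07 ± 0.28 SE higher, limma, adjusted p = 0.0772). The next, on chromosome 1 from 2263406 to 2265602, went from ranks 57 and 44 at fast growth to 17 and 3 at slow growth, with scores of 461.08 and 448.43 against 657.97 and 1565.38 (0.87 ± 0.24 SE higher, limma, adjusted p = 0.0942). All slow values were above the fast values at both loci.

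The remaining loci that ranked lower at slow growth changed less. On chromosome 1 from 2500602 to 2501646, between a pair of the leading kept loci, the scores were 340.41 and 229.12 at fast and 185.27 and 220.9 at slow growth. On chromosome 4 from 1124541 to 1125931 they were 419.5 and 461.49 against 273.02 and 343.52, and the peak narrowed from 1298 and 1387 bp to 992 and 985 bp. Between 439528 and 441548 on chromosome 1 the ranks were 17 and 16 at fast and 28 and 36 at slow growth, a fall of few places near the top of the lists. The adjusted p of the first of these was 0.203 and of the second 0.174 (limma).

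The position of changed loci relative to chromosome ends was described without a test. Within 100 kb of the highest coordinate in the lists or of the sequence start lay 0 of the 20 gained and 0 of the 5 lost loci, against 30 of all 411 loci (7.30%) and 14 of the 139 kept loci. With 199 peaks from each list, 1 of the 11 gained and 2 of the 13 lost loci lay within this distance. The fallen pair on chromosome 3 did so too, 73.6 and 76.3 kb from the end as listed. Gained loci were spread over chromosomes 1 to 4 with 8, 3, 5 and 4 loci. The WT input control, fixed chromatin that was decrosslinked before extraction, had 71 regions, and between 4.19% and 5.53% of the peaks of a list overlapped one. Of the gained loci 1 overlapped an input region, of the lost loci 0 and of the kept loci 8, and with such peaks removed 19 loci were gained, 5 lost and 131 kept.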

How the data were processed

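The deposited lists of the 4 WT libraries hold 1 peak per line with a score. According to the methods, the authors mapped paired-end reads with BWA (0.7.13 per the labels, with SAMtools 1.3) to the CBS7435 genome, dropped reads of low mapping quality and called peaks with MACS2 on pooled replicates against the input. The lists depart from this, since each is of 1 library and is named in the style of MACS version 1. The score deposited by the authors was read as a caller score of that style (10 times −log10 p), which no file states. On that reading the lowest scores, between 150.16 and 154.38, are stricter than the p-value cut-off that the methods give. Starts were converted to count from 1, and chromosome ends are the highest coordinates listed.

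Loci, overlaps and ranks were computed in Python 3.11.15 with scipy 1.17.1, and scores were tested with limma 3.58.1 (Benjamini-Hochberg over all kept loci). Scripts were tested on simulated data. The libraries, the equal-number rule, the categories and the lists of loci were chosen with earlier results of these data known. Loci were named by the highest mean percentile (8 gained, all 5 lost, 5 kept, 3 of each with equal numbers) and by the largest shift without overlap (5 up, 5 down). With 2 libraries per stage, p-values measure the spread between these libraries, and replicates are taken as independent. For limma the variance is shared over all kept loci, so that its p-values do not rest on the spread at 1 locus alone. No genome of this strain was at hand, so sequences and genes were not analysed here.

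The alternatives were the higher-scoring 50% of each list, equal numbers of peaks, a common minimum score of 154.38, removal of input regions, merging within 200 bp, presence over 50% of a locus or in either replicate, other overlap measures, the replicate number as a block and leaving out each library. Scaled scores, limma with its alternatives and the crossed pairing were added after seeing the data.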

Additional observations from a re-analysis of the deposited data

How the results depend on the processing

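With 2 libraries per stage, each left-out library mattered. Over the fits that left out 1 library, the log2 difference in peak number ran from −0.040 to 0.87 and in covered length from −0.011 to 0.73, both negative only without slow 2. The Jaccard difference with all peaks (same stage minus different stage) ran from −0.061 without fast 2 and −0.038 without fast 1 to 0.159. Gained loci then numbered 27 to 156 and lost loci 9 to 25, with the highest gain without slow 1 and the highest loss without slow 2. The share of fast loci kept ran from 72.5% to 94.6%, the share of slow loci present at fast growth from 41.7% to 84.0%, loci with higher rank from 40 to 125, loci with lower rank from 9 to 51, and the median shift from 6.78 to 17.1 percentile points. A stage left with 1 library makes a locus in that list count as held by the stage, and in limma the lone library is assumed to vary like the others; limma then called 0 to 5 loci higher and 0 to 7 lower.

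Equal numbers of peaks gave 11 gained and 13 lost loci, 81.3% of slow loci present at fast growth, and 22 loci with higher and 22 with lower rank. The higher-scoring 50% gave 12 gained and 71 kept loci and 20 with higher rank. Presence in either replicate gave 162 gained, 16 lost and 233 kept loci, with shares of 93.6% and 59.0%. Scaled scores gave 13 lost loci, 21 with higher and 21 with lower rank. Ranking among kept loci gave 22 higher and 30 lower. Limma called 1 lower locus with a common minimum score, the higher-scoring 50%, input regions removed, equal numbers or scaled scores, and 0 with quantile normalised scores. The cause of these changes was not tested. Peak number with equal numbers is fixed by construction and was not run.

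Replicate numbers are shared between the stages, but nothing links the libraries beyond the number. Deviations of same-numbered libraries correlated at −0.13 for percentiles and −0.0028 for centred scores over 139 loci. With the replicate block the Jaccard difference was 0.0322 and limma called 1 locus higher and 2 lower. The crossed pairing also gave 1 higher and 2 lower. For counts of loci no paired analysis was possible because they come from no test.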

Other observations

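The 135 loci held by slow 2 alone were spread over chromosomes 1 to 4 with 35, 43, 28 and 29 loci. The highest coordinates listed for these chromosomes were 2887016, 2394757, 2251895 and 1815705. Chromosome 2 held 31.9% of the 135, against 25 of the 139 kept loci (18.0%) and 94 of all 411 loci (22.9%), which include the 135. Of the 135, 2 overlapped a region of the WT input list. These loci were defined by a single library, and their distribution was not tested.

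The longest list missed few loci of the others. Slow 2 lacked 17 of the 218 loci of fast 1 (7.80%) and 16 of the 199 loci of fast 2 (8.04%), while slow 1 lacked 54 (24.8%) and 44 (22.1%) of them. This was not seen with 199 peaks from each list. Slow 2 then lacked 24.2% of the loci of fast 1 and 23.1% of those of fast 2, and slow 1 lacked 21.2% and 22.6%.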
